A study of Mus musculus with 96 samples.

Results

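The genes of cytosolic ribosomal proteins were described in gonadal fat and liver of 48 F2 mice. Members were the genes whose probe symbol starts with Rpl or Rps followed by a digit, or is Rplp0, Rplp1, Rplp2 or Rpsa, without the Rps6k kinases and 1 further symbol that the rule leaves out. The rule found 78 genes, 25 of them with more than 1 probe, among 17658 named genes of the array, and the brightest probe of each gene stood for it. They comprised 41 genes of the large subunit, 25 of the small subunit, 3 of the P stalk, 6 paralogs (Rpl3l, Rpl7l1, Rpl22l1, Rpl36al, Rpl39l and Rps27l), 2 pseudogene or retrogene symbols (Rps19-ps3 and Rps23rg1), and Rps19bp1, which fits the spelling of the rule but encodes a binding partner of Rps19.

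All mice came from an intercross of M16i, an inbred line whose ancestors were selected for rapid growth, with the line MB2, and all were 15 weeks old. Each mouse gave 1 array of gonadal fat and 1 of liver, so that there were 48 arrays a tissue, 24 from females and 24 from males, and 12 from each of 4 haplotype classes. The labels do not say which parental segments a class carries, or whether F2 mice of a class also differ elsewhere in the genome. Biotin-labelled cRNA of whole tissue was read on Illumina bead arrays over 4 scanning days a tissue with 12 arrays each, and the aim named by the submitters was to find expression QTLs. Detected probes numbered 6582 to 10002 per fat array and 5519 to 9060 per liver array, and 4 fat and 2 liver arrays correlated less with the rest of their tissue than the others did. Adipocyte markers were bright in fat, and 4 of the 6 (Plin1, Lep, Cidec and Lipe) were detected on no liver array. The 6 hepatocyte genes had a summed level of 15.46 to 16.46 in liver, where Fgb was detected on no array. In fat their summed level was 8.42 to 10.17, and only Alb and Fgb were detected on no array.

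A ribosome joins a large and a small subunit, each built from ribosomal RNA and a fixed set of proteins, most of them needed in equal numbers. Their mRNAs are among the most abundant of a cell and carry a tract of pyrimidines at the 5′ end (the TOP motif), through which the growth signal of mTORC1 controls their translation together. Liver makes secreted proteins in bulk, whereas in fat a large lipid droplet fills the adipocyte and many cells of the depot are stromal, vascular or immune.

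Promoter sequence was available for 63 of the 78 symbols in the RefSeq table of GRCm38.p6, 55 of them subunit or stalk genes. Transcripts of these genes typically begin within a run of pyrimidines, so sequence around the annotated start is shown for 6 members on which the results below turn. The capitals mark the longest run of C and T within 20 bases of the annotated start, and each line spans 60 bases before to 20 bases after it. In none of the 6 does the marked run hold the annotated start base. It begins after that base in Rpl13a and ends before it in the others. Rps16, Rpl37 and Rpl10a followed the mean of the other members most closely in fat. Rpl7l1, Rpl13a and Rps27l had less signal in fat than in liver.
Rps16, chr7:28350629-28350708, plus strand: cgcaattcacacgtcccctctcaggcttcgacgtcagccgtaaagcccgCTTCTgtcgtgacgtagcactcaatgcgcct
Rpl37, chr15:5116553-5116632, plus strand: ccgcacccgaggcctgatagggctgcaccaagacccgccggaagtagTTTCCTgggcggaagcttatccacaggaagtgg
Rpl10a, chr17:28328411-28328490, plus strand: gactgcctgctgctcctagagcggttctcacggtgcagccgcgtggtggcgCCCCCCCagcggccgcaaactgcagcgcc
Rpl7l1, chr17:46782637-46782716, minus strand: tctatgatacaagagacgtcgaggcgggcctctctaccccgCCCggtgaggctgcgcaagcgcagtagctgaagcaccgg
Rpl13a, chr7:45128726-45128805, minus strand: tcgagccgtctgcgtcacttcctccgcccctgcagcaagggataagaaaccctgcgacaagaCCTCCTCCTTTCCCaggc
Rps27l, chr9:66946026-66946105, plus strand: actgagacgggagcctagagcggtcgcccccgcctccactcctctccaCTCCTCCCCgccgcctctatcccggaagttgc

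The longest run was 14 bases in Rpl13a, 9 in Rps27l, 7 in Rpl10a, 6 in Rpl37, 5 in Rps16 and 3 in Rpl7l1. Its median was 7 bases over the 55 subunit and stalk genes and 5 over all 27018 promoters of the table. The letters CTTTCC stood within 20 bases of the start, on the gene's strand, in 14.5% of the 55 and 1.9% of all promoters. CCGGAAG on either strand, the core letters of an ETS factor site, was present in 41.8% of the 55 and 9.12% of all. AAGATGGC, the core of a YY1 site, was present in 7.27% and 2.88%. TATAAA 40 to 20 bases before the start was present in 0 of the 55 and 2.09% of all. The annotated first base was a C in 36.4% of the 55 genes and 16.2% of all. The annotated start may lie off the start used in these tissues, and a match is only a match of letters.

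Of the 78 members, 71 were detected on enough arrays to be tested in fat and 69 in liver. Probes that passed in neither tissue belonged to Rpl29, Rpl39l, Rpsa, Rps15a, Rps23rg1, Rpl36al and Rpl3l. Rpl29, Rpl39l and Rpsa were above background on no array, which bears on these probes and not on the genes, since probes of a member can differ in how well they bind. Ribosomal protein genes have many processed pseudogenes and close paralogs, so a probe may also bind RNA from a copy, and levels are compared between samples and never between probes.

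The first question was how the members differ between the tissues. Most had more signal in fat. Against liver, 60 of the 71 tested members were higher in fat and 6 were higher in liver, whereas over all 11718 tested probes 47.9% were higher in fat and 38.8% higher in liver. The median difference of the members was 0.68 on the log2 scale and that of all tested probes 0.04. Fat and liver were scanned on different days, so tissue and scanning day cannot be told apart. In bulk tissue, fewer cells of a type and less RNA per cell cannot be told apart, and each array was scaled to the same distribution of signal. When arrays were instead centred on their medians, the median of all probes moved from 0.04 to 0.26, that of the members was 0.52, and the members lay 0.26 above all probes rather than 0.64. Under that scaling 80% of all calls were higher in fat, against 55.2% in the main setting.

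**Figure D1:**
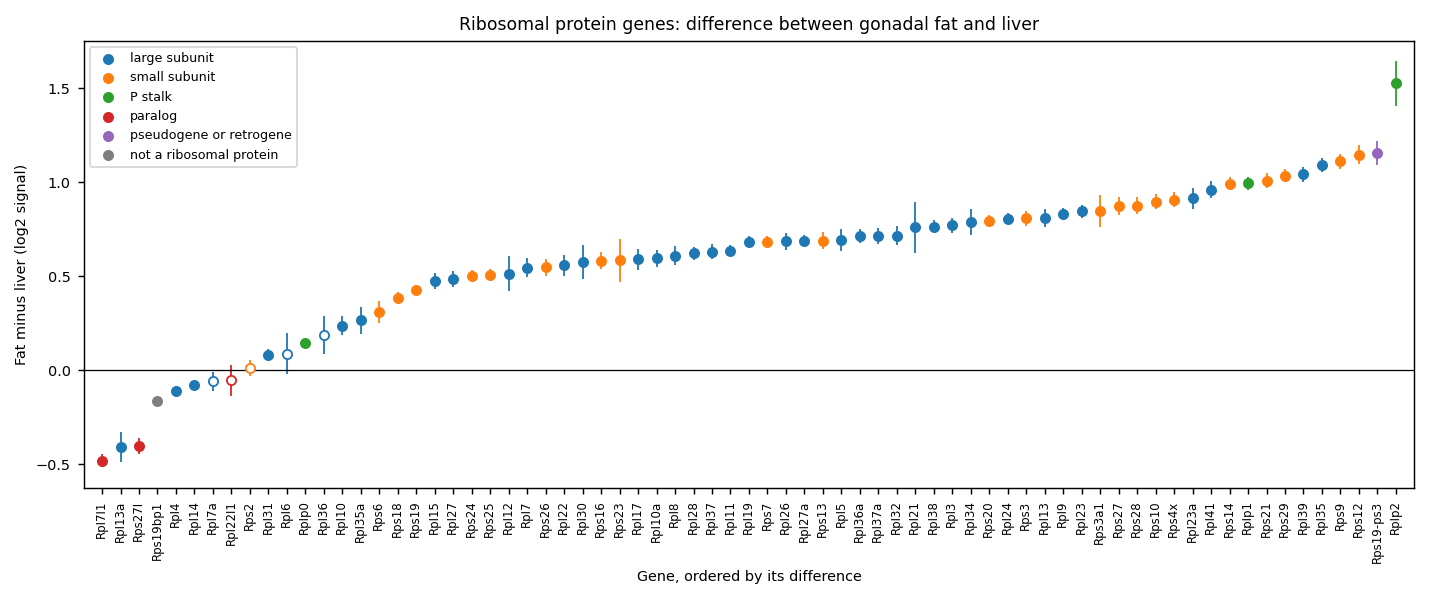
Difference in log2 signal between gonadal fat and liver for the 71 tested members, ordered by size. Points are estimates from 48 arrays a tissue, bars are standard errors, filled points passed the test and open points did not, and colours give the role. Most large and small subunit genes lie above 0, and the paralogs Rpl7l1 and Rps27l and the subunit gene Rpl13a lie lowest.

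Of the small subunit genes, 22 of 23 were higher in fat and none was higher in liver. Rps12 had the largest difference of them. Its log2 signal was 11.31 to 13.15 on fat arrays (median 12.46) and 11.00 to 11.75 on liver arrays (median 11.32), a 2.21-fold difference (1.14, SE 0.05, limma adjusted p = 5.16e-39). The ranges overlapped, and fat was higher in 47 of 48 mice. Rps9 ran from 11.56 to 12.63 in fat (median 12.15) and from 10.71 to 11.56 in liver (median 11.09), a difference of 1.11 (SE 0.04, adjusted p = 1.19e-45). Fat was higher in all 48 mice. Rps29 (1.04), Rps21 (1.01) and Rps14 (0.99) followed, each higher in fat in 48 of 48 mice. Rps4x, the X-linked form of Rps4 and parent of a further paralog, differed by 0.91 (SE 0.04). Apart from Rps6 and Rps2, given next, the remaining small subunit genes lay between 0.38 (Rps18) and 0.90 (Rps10).

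Rps6, whose protein is the best known target of the S6 kinases, differed less. It was 10.10 to 11.73 in fat (median 11.03) and 10.26 to 11.19 in liver (median 10.65), a difference of 0.31 (SE 0.06, adjusted p = 1.16e-06) with fat higher in 38 mice. Its second probe did not pass (0.12, adjusted p = 0.609). The 1 small subunit gene that did not pass was Rps2, at 11.91 ± 0.23 in fat and 11.90 ± 0.16 in liver (SD, n = 48 each; difference 0.01, SE 0.04, adjusted p = 0.778). The Rps19 probe was above background on 37 fat and no liver arrays. Its measured means were 6.34 and 5.91 (adjusted p = 2.59e-31), and against the detection floor it was at least 1.03-fold higher in fat.

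In the large subunit 34 of 40 tested genes were higher in fat, 3 were higher in liver and 3 did not pass. Rpl35 was 11.72 to 12.60 in fat (median 12.23) and 10.78 to 11.47 in liver (median 11.13), so the groups did not overlap (1.09, SE 0.04, adjusted p = 7.43e-47). Rpl39, which lines the exit tunnel of the ribosome, was 12.51 to 13.60 in fat (median 13.02) and 11.64 to 12.33 in liver (median 12.02), again with no overlap. Rpl5 and Rpl11, which bind the smallest ribosomal RNA and can stabilise p53 when ribosome assembly fails, differed by 0.69 (SE 0.06) and 0.64 (SE 0.03). Rpl36, Rpl6 and Rpl7a did not pass, with differences of 0.19 (SE 0.10), 0.09 (SE 0.11) and -0.06 (SE 0.05).

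The P stalk recruits translation factors to the large subunit. Rplp2 had the largest difference of all tested members. It ran from 8.25 to 11.53 in fat (median 10.83) and from 7.85 to 10.25 in liver (median 9.20), a 2.88-fold difference (1.53, SE 0.12, adjusted p = 7.28e-22). The groups overlapped, and fat was higher in 46 of 48 mice. Its partner Rplp1 was 13.41 to 14.43 in fat (median 13.85) and 12.56 to 13.12 in liver (median 12.87), with no overlap (0.99, SE 0.04). The Rplp0 probe, whose gene encodes the stalk's base, was above background on 12 fat arrays and no liver array, so its difference of 0.14 gives no fold.

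The members with more signal in liver were few, and the direction of most rested on the scaling of the arrays. Rpl13a, whose protein can leave the ribosome in inflamed cells and then represses translation of certain mRNAs, was 7.00 to 9.20 in fat (median 7.58) and 7.50 to 8.65 in liver (median 8.13). Liver was higher in 39 of 48 mice (-0.41, SE 0.08, adjusted p = 3.88e-06), but with median-centred arrays the sign turned to 0.25. A second Rpl13a probe gave -0.36. Rpl4 (-0.11), Rpl14 (-0.08) and Rps19bp1 (-0.17) were near background in both tissues, and each turned to above 0 with median-centred arrays.

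For 2 paralogs the sign was opposite to that of the parent gene. Rps27l, which p53 induces, was 10.26 to 11.44 in fat (median 10.94) and 10.94 to 11.61 in liver (median 11.34), lower in fat in 45 of 48 mice (-0.40, SE 0.04, adjusted p = 7.43e-15). Its sign held with median-centred arrays, at -0.53. The parent Rps27 was 0.87 higher in fat (SE 0.05), in 48 of 48 mice. Rpl7l1, which acts in assembly of the large subunit, was 6.49 to 7.08 in fat (median 6.79) and 6.92 to 7.84 in liver (median 7.26), lower in fat in all 48 mice (-0.48, SE 0.04), although median-centred arrays turned the sign to 0.12. Its parent Rpl7 was 0.55 higher in fat (SE 0.05). Rpl22l1, detected on 26 fat and 15 liver arrays, did not pass (-0.05, SE 0.08), and its parent Rpl22 was 0.56 higher in fat (SE 0.06). Whether a paralog and its parent differ in response was not tested. The pseudogene symbol Rps19-ps3 stood near the top of the list, at 1.16 (SE 0.06), and its probe may also bind RNA of Rps19 or of other copies.

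Rpl3l, the muscle form of Rpl3, was detected on no liver array and on 7 fat arrays, where it ran from 6.24 to 10.47. Its highest value was 10.47 in a class 3 female (replicate 4), whose array also held the skeletal muscle genes Acta1 at 13.89 and Ckm, muscle creatine kinase, at 10.64. The next values in females, from 6.97 to 7.89 on 3 arrays, came with Acta1 at 11.04 to 12.38. The second highest, 9.57, was in a class 2 male (replicate 1), where Ckm was 5.88. That array instead held Adam7, an epididymis gene, at 12.73 against a median of 5.82 over fat arrays. Both arrays are among the 4 that stood apart. The part of these tissues in other results was not tested, but calls were repeated without the arrays that stood apart.

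Of 25 members with several probes, 17 of the 37 further probes could be tested between tissues and 16 were never detected. Of these 17, 13 passed as their gene's brightest probe did, 12 of them in the same direction. The exception was Rpl23, whose brightest probe was 0.84 higher in fat and whose second was 0.60 lower. The other 4 did not pass although the brightest probe had. The differences were 0.76 and 0.01 for the probes of Rpl21, 0.58 and 0.09 for Rpl30, 0.76 and 0.06 for Rpl38, and 0.31 and 0.12 for Rps6.

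Other genes of translation gave a mixed picture. Of the 16 tested genes with TOP mRNAs that encode no ribosomal protein, mostly translation factors, 11 were higher in fat and 2 in liver, with a median of 0.38. Among them were Nap1l1, a histone chaperone (1.69), Pabpc1, the poly(A) binding protein (1.18), and the elongation factor Eef1g (1.00). Of 23 initiation factor genes, 8 were higher in each tissue (median -0.02), with Eif3l at 0.68 and Eif5 at -0.88. Of 29 ribosome biogenesis genes, 14 were higher in fat and 8 in liver (median 0.05), and of 12 genes around mTORC1 the figures were 6 and 4. The translation repressor gene Eif4ebp1 stood out among the last with a difference of 2.84. Genes of mitochondrial ribosomal proteins leaned the other way, with 15 higher in fat and 45 higher in liver of 69 (median -0.26). Mrps6 was an exception at 3.20. Of 8 common reference genes, 5 were higher in fat and 2 in liver.

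The next question was whether the members differ between the sexes. In fat, 7 of 71 members were higher in females and none was higher in males, where 12.1% of all tested probes were higher in females and 10.5% higher in males; 13 members had an unadjusted p under the threshold of 0.05. The median of female minus male was 0.06 for the members and 0.01 for all probes. Rpl13a differed most. It was 7.43 to 9.27 in females (median 8.02) and 7.22 to 8.49 in males (median 7.68), a difference of 0.35 (SE 0.11, limma adjusted p = 0.0197) after class and scanning day. The sexes overlapped, and females were higher on 4 of 4 scanning days. On any 1 day each class was represented by a single sex, so the sign within a day mixes sex with class, whereas the fit held class and day as terms. Its second probe gave 0.32 (adjusted p = 0.0181).

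Rpl36a, a large subunit gene on the X chromosome, was 11.74 to 12.49 in female fat (median 12.14) and 11.43 to 12.34 in male fat (median 11.87), a difference of 0.19 (SE 0.06, adjusted p = 0.0188). Rps24, mutated in some human families with Diamond-Blackfan anaemia, was 6.67 to 7.49 in females (median 6.93) and 6.16 to 7.30 in males (median 6.79), and females were higher on 3 of 4 days. Rpl31, Rpl23a, Rpl38 and Rps20 were higher in females by 0.15 to 0.19 on 4 of 4 days. Leaving out the arrays of any 1 scanning day gave 0 to 2 such members in place of 7, and median-centred arrays gave 0. Of all tested probes, 9.52% to 19.2% passed in either direction with a day left out. With median-centred arrays 19.7% passed, 24.7% of them higher in females.

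All 5 stromal markers were higher in female fat as well, among them Col1a1 (1.10), Dpt (0.57) and Dcn (0.30), while of the 6 adipocyte markers only Plin1 passed, lower in females (-0.48). The summed level of the stromal markers was 12.91 to 13.78 in females and 12.67 to 13.18 in males, and that of the adipocyte markers 14.06 to 15.09 and 13.83 to 15.02. Markers of other tissues differed between the sexes as well. The skeletal muscle gene Acta1 was 2.42 higher in females, and the summed level of 10 muscle genes was 9.24 to 15.63 in females and 9.17 to 9.63 in males, in whom 7 of the 10 were never detected. Of 3 tested endothelial markers Pecam1 passed (0.38), with summed levels of 10.02 to 10.98 and 9.78 to 10.75, and 1 of 3 mesothelial markers was also higher in females, with 8.46 to 11.50 and 8.28 to 10.88. Of 3 erythroid markers Hba-a1 was lower in females (-0.35), with 12.67 to 14.45 and 13.17 to 15.03. Male fat held other tissue too: the summed level of 4 epididymis and testis genes was 7.80 to 8.18 in females and 7.84 to 12.99 in males. None of these was detected on enough fat arrays to be tested. The part of all these markers in the sex differences of the members was not tested.

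In liver, 5 of 69 members were higher in females and 6 higher in males, where the shares over all tested probes were 16.7% and 17.3%. The medians of female minus male were 0.01 for members and -0.003 for all probes. Of those higher in females, Rpl32 had the largest difference. It was 10.59 to 11.42 in females (median 11.17) and 10.04 to 11.36 in males (median 10.92), a difference of 0.22 (SE 0.08, adjusted p = 0.0273). Rpl22 (0.20, SE 0.07), Rps28 (0.16, SE 0.05), Rpl9 (0.15, SE 0.04) and Rps20 (0.11, SE 0.04) were also higher in females, each on 4 of 4 scanning days.

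Of those higher in males, Rps19-ps3 was 7.84 to 8.86 in females (median 8.49) and 8.09 to 9.58 in males (median 8.70), a difference of -0.25 (SE 0.07, adjusted p = 0.00754). Rps27l was 11.09 to 11.74 in females (median 11.51) and 11.22 to 11.78 in males (median 11.53). Its difference was -0.14 (SE 0.04, adjusted p = 0.0019) in the fit with class and day, and the mean was 11.46 in females and 11.53 in males. Rpl7l1 (-0.13), Rpl28 (-0.12), Rpl38 (-0.10) and Rps18 (-0.10) were lower in females on 4 of 4 days. Which members were called in liver, and some of the directions, rested on scaling. With median-centred arrays, 22 members were higher in females and none in males. Of all tested probes 38.3% passed in that setting, 86.4% of them higher in females, against 34% and 49% in the main setting. The median of all probes moved to 0.06 and that of members to 0.12, and Rpl7l1, Rpl28 and Rps18 turned sign. Female livers also had more detected probes, with a median of 7832 against 6960.5 in males. With that number as a covariate, 1 member was higher in females and 6 in males, and the members' median was -0.03. Macrophage markers (3 of 4) were higher in female liver, with a summed level of 8.86 to 11.03 in females and 8.70 to 9.66 in males. Both tested endothelial markers were higher in females too, with summed levels of 8.22 to 8.59 and 8.11 to 8.34, as were 2 of 5 hepatocyte markers, with 15.57 to 16.46 and 15.46 to 16.37. The single tested B cell marker was 0.55 higher and the single tested proliferation marker 0.05 higher, and 1 of 3 erythroid markers was lower in females. The part of these markers was not tested.

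**Figure D2:**
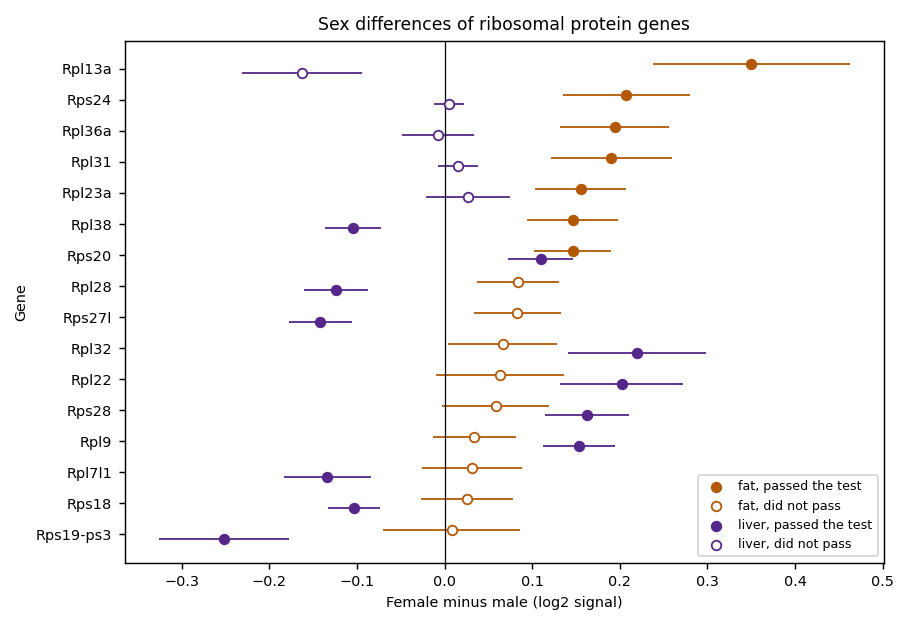
Female minus male difference in log2 signal for the 16 members that passed in fat or in liver. Points are estimates with standard errors from 24 arrays a sex, orange for fat and violet for liver, filled where the test was passed. Rps20 lies above 0 in both tissues, and Rpl38 lies above 0 in fat and below 0 in liver.

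By brightest probes, Rps20 was the 1 member higher in females in both tissues. Rpl38, in which a mouse mutation alters the body plan, was by its brightest probe higher in females in fat and in males in liver. Calls depended on the probe. The second Rpl38 probe passed in neither tissue (0.09, limma adjusted p = 0.286 in fat, and -0.07, adjusted p = 0.0635 in liver). That of Rps20 passed in liver (0.17) but not in fat (0.18, adjusted p = 0.0671). For Rpl27a the second probe passed in fat (0.49, adjusted p = 1.66e-05) and the brightest did not (0.08, adjusted p = 0.200). The sex difference was compared between the tissues as an interaction, for the brightest probes. This test was passed by 7 of 71 members and by 27.6% of all tested probes. For Rpl38 the sex difference was 0.26 larger in fat than in liver (SE 0.06, adjusted p = 0.000696). For Rpl13a it was 0.51 larger (SE 0.14, adjusted p = 0.00272), for Rps27l 0.23 (SE 0.06, adjusted p = 0.00385), for Rpl28 0.21 (SE 0.06, adjusted p = 0.00418) and for Rps25 0.19 (SE 0.06, adjusted p = 0.0072). Rps25 turned sign with median-centred arrays, to -0.03.

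The study was designed to compare haplotype classes. No member passed the test across the 4 classes in limma in either tissue, where 0.401% of all tested probes passed in fat and 0.317% in liver. Without adjustment, 7 members in fat and 1 in liver had a p under 0.05. With median-centred arrays 6 members passed in fat, as did 937 of all 10217 probes. The interaction of tissue and class, which 0.196% of all probes passed, also gave no member, with 3 at an unadjusted p under 0.05. The members on chromosome 2, Rpl12, Rpl35, Rpl7a and Rps21, did not pass in either tissue. Rpl35, which sits at the mouth of the exit tunnel, had class means of 11.96 to 12.02 in fat (SDs of 0.17 to 0.22, n = 12 each) and of 11.23 to 11.27 in liver. The class means of Rps21 ran from 12.61 to 12.73 in fat and from 12.02 to 12.10 in liver, those of Rpl7a from 10.26 to 10.38 and from 10.47 to 10.57, and those of Rpl12 from 9.49 to 9.64 and from 8.80 to 9.03. In each case the range of the class means was within about 1 SD of the arrays of a class.

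Rps27l in fat came closest. It was 10.58 to 11.00 in class 1 (median 10.90), 10.19 to 11.05 in class 2 (median 10.61), 10.37 to 11.13 in class 3 (median 10.83) and 10.65 to 11.26 in class 4 (median 10.95). Class 2 had the lowest mean, 10.61 ± 0.23 (SD, n = 12), with the other classes at 10.79 to 10.92, and all classes overlapped. Its adjusted p was 0.0513, and it lay between 0.00125 and 0.357 over the alternatives, 5 of which it passed. Without the 4 fat arrays that stood apart, 2 of them class 2 males, it was 0.00411. The next member was Rpl9, at 13.39 ± 0.12 in class 2 and between 13.19 and 13.22 elsewhere (adjusted p = 0.20). In liver the smallest values were 0.905 for Rpl13a and 0.93 for Rps18.

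**Figure D3:**
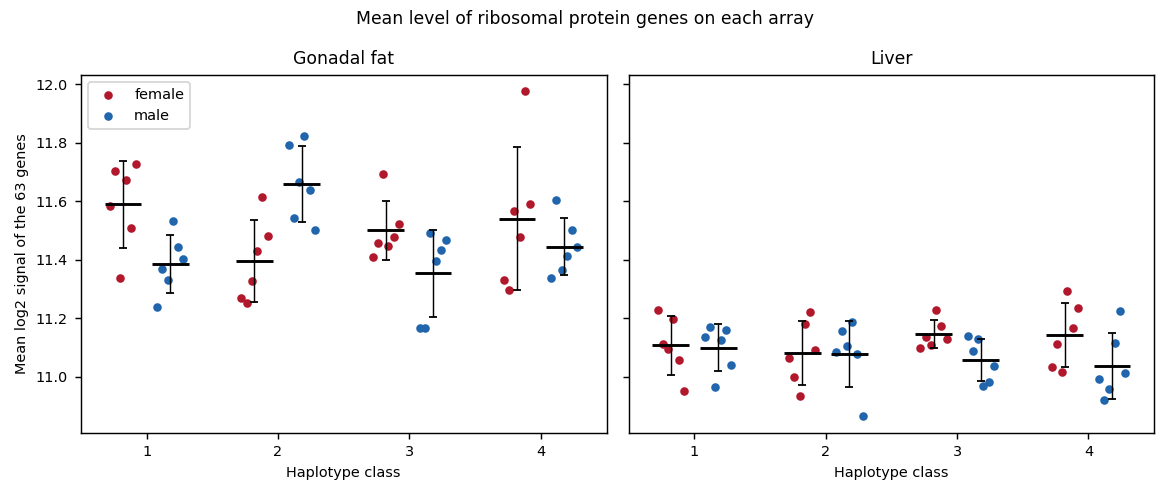
Mean log2 signal of the 63 members detected on every array, 1 point per array, by haplotype class and sex. Bars are means with SD of 6 arrays, and the tissues were normalized separately, so their levels are not set against each other. In fat the arrays run from 11.17 to 11.98 and in liver from 10.86 to 11.29, and the classes overlap.

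The mean over the 63 members detected on every array of both tissues showed the same overlap. In fat it was 11.49 ± 0.16 in class 1, 11.53 ± 0.19 in class 2, 11.43 ± 0.14 in class 3 and 11.49 ± 0.18 in class 4 (SD, n = 12 each). In liver it was 11.10, 11.08, 11.10 and 11.09, with SDs of 0.07 to 0.12. It differed more between scanning days, from 11.32 on day 3 to 11.60 on day 7 in fat and from 11.01 on day 2 to 11.13 on days 5 and 6 in liver. Single members showed the day as well: 48 of 71 in fat and 54 of 69 in liver, where the shares over all probes were 55.3% and 57.3%.

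The last question was how the members vary between mice once class, sex and scanning day are removed as separate terms. Differences particular to a combination of class and day stay in these residuals. Each mouse gave 1 array a tissue, so spread between mice and spread between arrays cannot be told apart. The residual SD of the members was 0.08 to 0.39 in fat, with a median of 0.20, and 0.05 to 0.58 in liver, with a median of 0.13. The medians over all tested probes were 0.19 in fat and 0.14 in liver, and over probes with a mean level of at least 10 they were 0.23 and 0.19. Of the 63 members, 48 had the larger SD in fat. In fat Rpl6 (0.39), Rplp2 (0.38), Rpl13a (0.37), Rps23 (0.37) and Rpl21 (0.34) varied most. In liver these were Rpl21 (0.58), Rplp2 (0.55), Rps23 (0.43), Rpl12 (0.42) and Rpl6 (0.42), so that 4 genes stood in both sets. All of those named in liver also fell with scanning position, as described below. Rps19bp1, Rpl14 and Rpl11 varied least in fat, with 0.08, 0.09 and 0.10, and Rps24, Rpl14 and Rpl4 in liver, with 0.05, 0.06 and 0.07. Except for Rpl11 these lay near background, where the offset compresses differences.

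Some members serve as reference genes for quantitative PCR, and their spread can be set beside that of other reference genes. Rpl13a had a residual SD of 0.37 in fat and 0.22 in liver, larger than that of 89.7% and 75.2% of the tested probes. Rpl32 had 0.20 and 0.26, Rps18 had 0.16 and 0.08, and Rpl19, at 0.13 and 0.11, varied least of these in fat. Among the common reference genes, Ppia had 0.10 and 0.12, Actb 0.21 and 0.22 and Gapdh 0.28 and 0.19. Rpl11 at 0.10 and 0.12 was close to Ppia in SD. It differed by 0.64 between the tissues and Ppia by 0.61, and neither passed the test of sex in either tissue.

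In fat the members, each by its brightest probe, mostly moved together. Over pairs of the 63 members, the median correlation of residuals across the 48 arrays was 0.47, and 95.1% of the 1953 pairs were positive, where the median over pairs of all probes was -0.002. In liver the median was 0.16 and 66.3% were positive. These are descriptions over arrays that share normalization, and with median-centred arrays the liver value was 0.65. Rps16 (r = 0.92), Rpl37 (0.91) and Rpl10a (0.85) followed the mean of the other members most closely in fat, and in liver these were Rpl37a (0.90), Rpl12 (0.88) and Rpl32 (0.88). Not all members followed that mean in liver, where Rpl22 (-0.50), Rps19-ps3 (-0.49) and Rps9 (-0.42) ran against it. The lowest in fat was Rplp2 (-0.04). The mean of the members in a mouse's fat and that in its liver gave r = -0.08 and rho = -0.08 over 48 mice, and r = 0.01 without the 2 mice farthest from the median.

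**Figure D4:**
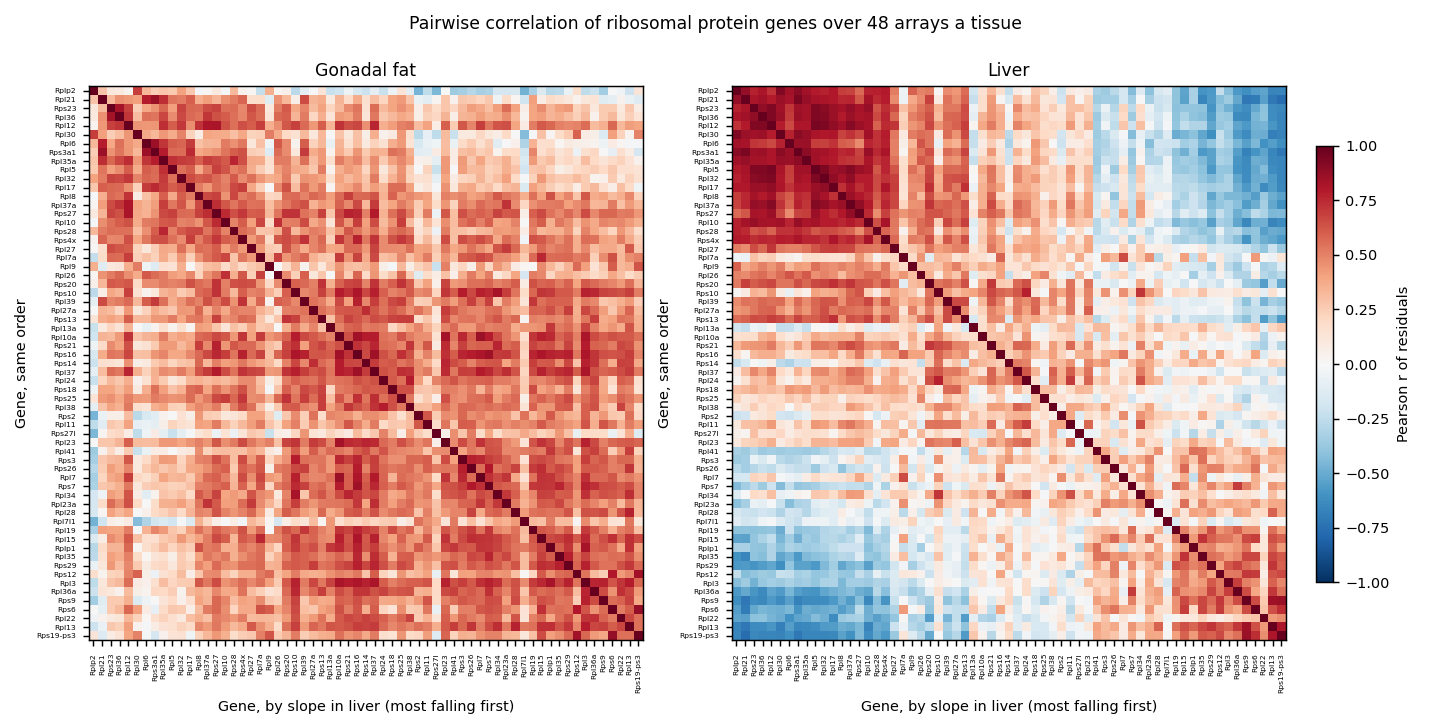
Pearson correlation of residuals between pairs of the 63 members over 48 arrays a tissue, after removal of class, sex and scanning day. Genes run in the same order in both panels, by their slope against scanning position in liver. Fat is mostly positive, and liver splits into a block of positively correlated genes at the top left and genes at the bottom right that run against it.

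The mean of the members in fat varied with markers of some cell types. It was negatively correlated with all 6 adipocyte markers (median r = -0.45) and all 3 tested endothelial markers (-0.31), and positively with all 5 stromal markers (0.29). Positive values were also found for 1 of 5 macrophage markers (-0.01), 2 of 3 T cell markers (0.06) and 2 of 2 B cell markers (0.22). For mesothelial markers these were 3 of 3 (0.06) and for erythroid markers 0 of 3 (-0.15), each list counting tested genes only. Of those other genes with TOP mRNAs, 15 of 16 were positively correlated with the mean of the members (median r = 0.31). Of the biogenesis genes 23 of 28 were (0.17), and of the mitochondrial ribosomal protein genes 17 of 68 (-0.17). In liver the picture was not the same. The mean of the members was positively correlated with 4 of 5 hepatocyte markers (median r = 0.70) and with 2 of 4 macrophage markers (0.01). The same held for 8 of 15 other TOP mRNA genes (0.35), 11 of 23 biogenesis genes (-0.01) and 26 of 67 mitochondrial ribosomal protein genes (-0.14). This mean does not stand for every member, since some ran against it in liver, as given above. The summed hepatocyte level ran from 15.46 to 16.46 over liver arrays. In fat the summed adipocyte level ran from 13.83 to 15.09 over fat arrays and the stromal level from 12.67 to 13.78. The mean of the members also correlated with scanning position, described below, at r = -0.55 in liver and 0.10 in fat. Position was not removed from these values. The difference between the tissues in these correlations and the parts of the cell makeup and of scanning position were not tested.

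Part of the members in liver varied with the order of scanning. The labels give a position of 1 to 12 within each scanning day, and a test against it was added after seeing the data. In liver 19 of 69 members fell with position and none rose, where 6.61% of all tested probes fell and 3.46% rose. Other lists fell in liver too: 5 of 15 other TOP mRNA genes, 2 of 5 hepatocyte markers, 4 of 23 biogenesis genes, 6 of 67 mitochondrial ribosomal protein genes and 0 of 22 initiation factor genes. Whether the members differ from these was not tested. In fat none passed, and neither did any of all tested probes. The steepest were Rplp2 (-0.08 per position, SE 0.02, limma adjusted p = 0.008), Rpl21 (-0.08, SE 0.02), Rps23 (-0.07, SE 0.01), Rpl36 (-0.07, SE 0.01) and Rpl12 (-0.07, SE 0.01). Rpl12, near the factor binding site of the large subunit, was 8.79 to 9.55 at positions 1 to 3 and 7.41 to 9.05 at positions 10 to 12 (12 arrays each), with means of 9.20 and 8.62. Rpl32 was 10.91 to 11.42 and 10.04 to 10.94. The ranges of all 19 overlapped, by little in Rpl32 and widely in the steepest: Rplp2 was 8.82 to 10.31 and 7.87 to 9.39, and Rpl21 was 7.79 to 10.45 and 7.24 to 9.47. With position in the model, the residual SD of Rplp2 went from 0.55 to 0.47 and that of Rps23 from 0.43 to 0.34.

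**Figure D5:**
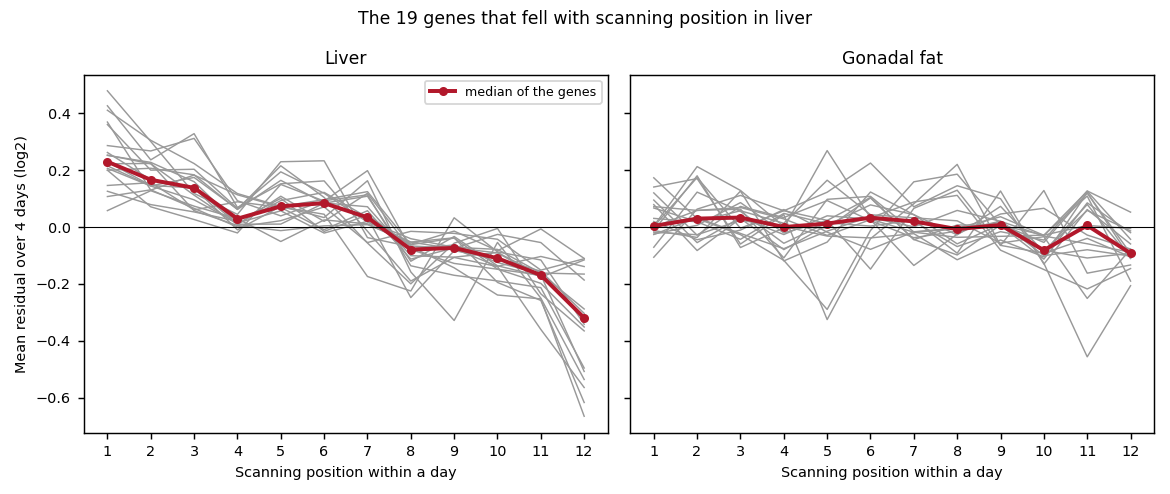
Residual log2 signal of the 19 members that fell with scanning position in liver, averaged at each position over the 4 scanning days, in liver and in fat. Thin lines are genes and the thick line is their median. In liver the lines run from above 0 at the first positions to below 0 at the last, and in fat the median stays between -0.09 and 0.03, with single genes as far off as Rpl6 at -0.46 (position 11).

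The 18 falling members detected on every array correlated with each other in liver at a median of 0.80, the other 45 at 0.15, and members of the former with the latter at 0.03. Since the 18 were chosen for a shared slope on these arrays, a higher value among them is built in. In fat, where none fell with position, the same split gave 0.54 and 0.54 within the sets and 0.34 between them. The falling members also varied more in fat, with a median SD of 0.25 against 0.18, and over all 63 members the SDs of the tissues correlated (r = 0.78, rho = 0.60). The slope went with the probe and not only with the gene. Of 14 members with several probes tested in liver, all probes fell for Rpl5 and Rpl30, some fell for Rps12, Rps3, Rps6 and Rps9, and none fell for 8. The third probe of Rps9 correlated at -0.69 with the brightest in liver, and the second of Rps6 at -0.54. In fat the third probe of Rps9 was at -0.14, and second probes ranged from -0.15 for Rps6 to 0.87 for Rpl13a. For Rps3 in liver, the brightest probe had a residual SD of 0.10 and the second 0.45. The 8 falling probes of these genes had a median SD of 0.42 and the others 0.15. Median-centred arrays gave 50 falling members in liver. The share of all tested probes that fell in that setting was not counted, so this number cannot be read as particular to the members. What changes along the scanning order was not tested.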

How the data were processed

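Total RNA of whole gonadal fat and liver was measured on 96 Illumina arrays. The deposited signal table holds probe intensities that the authors had summarised from beads, neither background-corrected nor normalized, judging from their values. The columns that are detection p-values per the file headers in fact rise with the signal, so the authors must have deposited 1 minus the p-value, and this was reversed. The deposited matrix holds log2-like values that the authors made with lumi, per the submitters' processing notes; its method is not given in the sources used here, and it served as an alternative.

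In R 4.3.3, limma 3.58.1 (neqc) corrected background by normexp, and log2 values after an offset of 16 and quantile normalization were used, within a tissue for class, sex and spread and over all 96 arrays for tissue and interactions. Levels near the offset understate differences. Probes with a detection p under 0.01 on at least 12 arrays were tested, 10217 in fat, 8504 in liver and 11718 over both. Models (lmFit, eBayes with trend) held class, sex and scanning day, for fat minus liver class and sex. Benjamini-Hochberg adjusted p-values ran over all tested probes, and under 0.05 was called; tests of sex and tissue were two-sided. The labels' mouse numbers pair fat and liver of an animal, and the consensus within-mouse correlation was -0.0257, so the pairing entered as an alternative. Residual SDs and correlations are those left after class, sex and scanning day. The fit by sex was tested on simulated data with known changes. The number of arrays limits the precision.

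Members and lists were chosen with earlier results of these data known. The rule for named genes took, among called members, the 10 largest tissue differences and the 8 largest sex differences in each direction, the smallest p-values for class and interactions, the extremes of SD, the paralogs with their parents, the P stalk genes and a few genes of special roles. The skeletal muscle list and the test of scanning position were added after seeing the data.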

Additional observations from a re-analysis of the deposited data

Results flagged for a closer look

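Among the 16 groups of 6 arrays formed by tissue, class and sex, 1 array lay far from its group in the mean level of the members. In livers of class 2 males, the lowest array was at 10.86, the next at 11.08 and the highest at 11.19. That array is 1 of the 2 liver arrays that stood apart, had 5519 detected probes, the fewest of all liver arrays, and was scanned at position 12, the last of its day. The gap to the next array was 0.661 of the range, above Dixon's critical value for 6 samples. Chance flags about 1 in 20 groups.

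The sex difference (female minus male) differed between the tissues for 7 of 71 members in limma's interaction test, and the 5 with the smallest p-values are given. Fat minus liver, this was 0.257 for Rpl38, 0.513 for Rpl13a, 0.226 for Rps27l, 0.206 for Rpl28 and 0.186 for Rps25. By its brightest probe, Rpl38 was higher in females on 4 of 4 scanning days in fat and on 0 of 4 in liver. A second Rpl38 probe passed the test of sex in neither tissue.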

How the results depend on the processing

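The alternative that moved most results was centring arrays on their medians in place of quantile normalization. It gave 6 members for class in fat (main 0), 0 higher in females in fat (main 7), 22 higher in females and 0 higher in males in liver (main 5 and 6), 2 higher in liver than fat (main 6), 13 for tissue by sex (main 7), 1 for tissue by class (main 0), 50 falling with scanning position in liver (main 19) and a median pairwise correlation of 0.6459 in liver. In that setting 38.3% of all tested liver probes passed for sex, 86.4% of them higher in females. The share of all probes that fell with position was not counted in it. Signs turned there for the liver sex differences of Rpl7l1 (0.00351), Rpl28 (0.00437) and Rps18 (0.00463), for fat minus liver of Rpl7l1 (0.12), Rpl13a (0.2543), Rps19bp1 (0.004856), Rpl4 (0.05189) and Rpl14 (0.07403), and for tissue by sex of Rps25 (-0.02741). With the number of detected probes as a covariate, Rpl14 turned to 0.002871 for fat minus liver, and 1 member was higher in females in liver. For class in fat, 1 member passed with the deposited log2 values, with probes detected on at least 24 arrays, with the mean of a gene's probes and without the arrays that stood apart, which also gave 11 members for tissue by sex, 1 for tissue by class and 3 higher in females in liver. With no filter on dim probes, 2 members were higher in females in fat, and 3 in each direction in liver. With no scanning day, 1 was higher in males in liver. The deposited values gave 1 member rising with position in liver. Leaving out each scanning day gave 0 to 2 members higher in females and 0 to 1 higher in males in fat, and 1 to 4 and 1 to 5 in liver, each with fewer arrays. The causes were not tested. With the mouse as a replicate block, 60 members were higher in fat, 6 higher in liver, 9 passed tissue by sex and 0 tissue by class. It moved no count of calls by over 1.5 times. Scanning day as a random block gave 58 and 6. Of 24 values for the counts and median of fat minus liver over the alternatives, 23 stayed within 1.5 times or 1 SD of the main value. The deposited matrix was not run for fat minus liver, since it appears normalized within each tissue. Dim probes limit what can be seen for Rplp0, Rps19, Rps24, Rpl4, Rpl14 and Rpl31.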
